A study of Mus musculus with 47 samples.

Results

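The globin genes of the mouse fall into 3 embryonic genes, Hbb-y, Hbb-bh1 and Hba-x, and 4 adult genes, Hbb-bs, Hbb-bt, Hba-a1 and Hba-a2. These 7 genes, chosen by their symbols, are described here out of the 20456 genes counted in 47 RNA-seq libraries. The RNA came from whole liver, lung and brain of embryos at E18.5, close to birth. The labels give the strain as C57BL/6, and per the methods the alleles were made in C57BL/6N zygotes and the founders were crossed back to C57BL/6J. The embryos were homozygous for 1 of 2 germline knock-in alleles of Daxx, a histone chaperone, or were wild-type littermates without the allele. The S226A change was made to break the binding of Daxx to the histone variant that it deposits, and the Y130A change to break its binding to its partner Atrx, which was assayed in cultured cells that overexpressed the protein. The study also reports more Daxx protein with Y130A and less with S226A in embryonic fibroblasts and E18.5 lung, most clearly in the fibroblasts. Each of the 12 groups held 4 libraries from 4 litters, except that 3 libraries stood for wild-type lung in the Y130A litters. The alleles were carried in every cell of the embryo, and the tissues contained their blood, so that the cells in which a globin read arose cannot be told from these libraries. In 1 of the S226A litters, lung was taken from a different wild-type embryo than the other tissues were.

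Hemoglobin is built from alpha-like and beta-like chains, which are encoded by separate gene clusters. In the early embryo, primitive red cells from the yolk sac carry hemoglobin made with the embryonic chains, and definitive red cells, which the fetal liver makes later, use the adult chains. Atrx, the partner of Daxx, takes its name from a human syndrome with alpha thalassemia, in which alpha-globin output is reduced. The comparisons ask how the embryonic and adult genes were expressed in each tissue in embryos with either allele, and how the ratio of embryonic to adult globin reads differed between mutant embryos and their littermates.

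The beta-like genes lie on chromosome 7 of GRCm38, all on the minus strand, in the order Hbb-bt (103812524 to 103813996), Hbb-bs (103826534 to 103828096), Hbb-bh1 (103841637 to 103843164) and Hbb-y (103851749 to 103853216). The alpha-like genes lie on the plus strand of chromosome 11, where Hba-x (32276400 to 32278116) comes before Hba-a1 (32283511 to 32284465) and Hba-a2 (32296489 to 32297298). Each has 3 exons in the GENCODE annotation. How far the reads of these relatives can be told apart sets what the counts mean, and the start of exon 2, a coding exon, shows it. The first 60 bases of that exon are given 5′ to 3′ on the strand of the gene, with capitals where Hbb-bh1 or Hbb-y differs from Hbb-bs, and where Hba-x differs from Hba-a1:
Hbb-bs (chr7:103827611-103827670, minus strand): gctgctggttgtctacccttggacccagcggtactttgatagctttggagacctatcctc
Hbb-bh1 (chr7:103842854-103842913, minus strand): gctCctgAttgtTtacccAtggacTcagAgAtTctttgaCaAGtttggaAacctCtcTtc
Hbb-y (chr7:103852911-103852970, minus strand): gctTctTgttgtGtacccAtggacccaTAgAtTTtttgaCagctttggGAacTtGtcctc
Hba-a1 (chr11:32283924-32283983, plus strand): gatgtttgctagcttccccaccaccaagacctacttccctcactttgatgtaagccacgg
Hba-x (chr11:32277569-32277628, plus strand): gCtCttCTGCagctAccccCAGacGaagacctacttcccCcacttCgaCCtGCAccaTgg
Exon 2 of Hbb-bt was identical to that of Hbb-bs over all 223 bases, and exon 2 of Hba-a2 to that of Hba-a1 over all 205 bases. The embryonic exons were 75.8% (Hbb-bh1) and 75.3% (Hbb-y) identical to Hbb-bs, and 65.4% (Hba-x) identical to Hba-a1. Over whole transcripts, 100% of the 75-base windows of the 3 embryonic genes occurred in no other annotated transcript of another gene. Of the adult genes, 35.7% (Hbb-bs), 43.4% (Hbb-bt), 37.8% (Hba-a1) and 19% (Hba-a2) of windows were unique, and the others were shared with the pair partner alone. The split of reads within an adult pair is therefore uncertain. Reads were counted per gene by STAR, but how reads that fit both copies were treated is not given in the sources used here, so a ratio of embryonic to adult reads is compared between libraries and is not a ratio of molecules.

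The promoters of the embryonic genes Hbb-y and Hba-x are shown beside those of 2 adult genes, as the 120 bases before the start in RefSeq (GRCm38.p6). Promoters were available for 6 of the 7 genes, all but the embryonic gene Hbb-bh1. The GENCODE starts of Hba-x, Hba-a1 and Hbb-bs lie further upstream, so the windows of these 3 genes fall within their GENCODE bounds, and those of Hba-a2, Hbb-bt and Hbb-y do so in part. Capitals mark 4 short motifs of globin promoters. These are the CCAAT box (written as ATTGG where it lies on the other strand), the CACCC box, the ATAAA motif and the GATAA motif:
Hbb-y (chr7:103853208-103853327, minus strand): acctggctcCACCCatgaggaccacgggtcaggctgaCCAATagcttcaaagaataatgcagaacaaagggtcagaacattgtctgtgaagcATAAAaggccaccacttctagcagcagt
Hba-x (chr11:32276480-32276599, plus strand): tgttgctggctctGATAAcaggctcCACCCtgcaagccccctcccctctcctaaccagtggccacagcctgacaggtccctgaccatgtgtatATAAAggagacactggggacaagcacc
Hba-a1 (chr11:32283552-32283671, plus strand): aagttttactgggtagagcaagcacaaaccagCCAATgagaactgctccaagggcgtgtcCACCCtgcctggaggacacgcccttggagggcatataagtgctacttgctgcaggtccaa
Hbb-bt (chr7:103813924-103814043, minus strand): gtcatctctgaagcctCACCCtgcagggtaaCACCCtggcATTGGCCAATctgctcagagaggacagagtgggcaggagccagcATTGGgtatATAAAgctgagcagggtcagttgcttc
On the strand of the gene, CACCC occurred in 6 of the 6 promoters and in 16.2% of all 32851 promoters of the same length. CCAAT occurred in 5 of 6, all but Hba-x, against 11.3% of all. ATAAA occurred in Hbb-y, Hba-x and Hbb-bt and in 12.6% of all, and GATAA, the core of the site that GATA factors bind, in Hba-x and in 5.72% of all. On that strand, no motif was found in both of the embryonic promoters available (Hbb-y and Hba-x) and in none of the adult ones. A match describes letters in this window and is not a measured binding site. The 4 motifs were picked as motifs of globin promoters, so a high share among these genes is no test. The windows of Hba-a1 and Hba-a2 also hold nearly the same sequence and are not separate cases.

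The libraries of the S226A litters held 15722147 to 26190403 counted reads and those of the Y130A litters 36351738 to 54885020, so mutants are compared with wild-type embryos of their own set, and where the 2 sets are set side by side, litters and sequencing cannot be told apart. Counts per gene do not show a point mutation, so the genotype labels were not checked through Daxx. Each tissue carried the markers of its label. The summed level of 8 lung epithelium genes was 6450 to 11100 counts per 1000000 reads (CPM) in the lungs and at most 50.5 elsewhere, that of 8 neuron genes was 6020 to 7400 CPM in the brains and at most 47.3 elsewhere, and that of 10 hepatocyte genes was 154000 to 235000 CPM in the livers and at most 1370 elsewhere. Reads of the 7 globin genes made up 1.43% to 2.19% of all reads in the livers, 0.255% to 0.662% in the lungs and 0.0364% to 0.129% in the brains.

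In wild-type embryos the mean of each of the 7 genes was highest in liver, the site of red cell formation at this age, although Hbb-y and Hba-x overlapped between liver and lung, and Hbb-bh1 between lung and brain. Per kilobase of transcript, Hbb-bs had the highest level of the 7 in the 8 wild-type livers, with 13760 to 26280 CPM per kilobase (median 18080), above Hba-a1 with 5398 to 9017 (median 6309), Hbb-bt with 5049 to 6942 (median 6339) and Hba-a2 with 3266 to 5204 (median 4430). Hbb-bt overlapped both alpha genes, and Hba-a2 lay below Hba-a1, although the split of reads within that pair is uncertain. The embryonic genes stood far below, with 6.02 to 21.4 CPM per kilobase for Hbb-y (median 11.4), 5.37 to 14.0 for Hba-x (median 7.87) and 0.821 to 4.65 for Hbb-bh1 (median 2.69). Hbb-y and Hba-x did not differ beyond their spread, and Hbb-bh1 lay below both.

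The size of the step between tissues differed from gene to gene. Tissues of the same embryo were not paired in these tests. Hbb-bs was higher in wild-type liver than in wild-type lung by 2.34 on the log2 scale (SE 0.23, adjusted p = 3.31e-12 in edgeR's quasi-likelihood test), and Hba-a1 by 2.55 (SE 0.23). Hbb-y was higher in liver than in lung by 0.96 (SE 0.36, adjusted p = 0.0152), which did not pass the criteria, whereas Hbb-bh1 was higher by 5.38 (SE 0.76, adjusted p = 2.94e-08). The criteria were an adjusted p below 0.01, a log2 fold change beyond 1 and a standard error below 1, and a gene that met them is called higher or lower. By them, 6 of the 7 genes were higher in liver than in lung, where 42.6% of the 16892 genes tested were called in either direction. From liver to brain 7 of 7 were called (56.1% of all genes), and from lung to brain 6 of 7, all but Hbb-bh1 (48.8%). In the wild-type lungs Hbb-bh1 had 0 to 2 reads per library in the S226A litters and 3 reads in all in the Y130A litters. Between the wild-type libraries of the S226A and the Y130A litters, none of the 7 genes was called in edgeR in any tissue (background 0.414% in liver, 1.62% in lung and 0.101% in brain), and 1 adult and 1 embryonic gene, Hbb-bs and Hba-x in brain, had an unadjusted p below 0.05, against 18.4% of all genes there. Both were lower in the S226A litters, by 0.69 and 3.06 on the log2 scale.

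**Figure D1:**
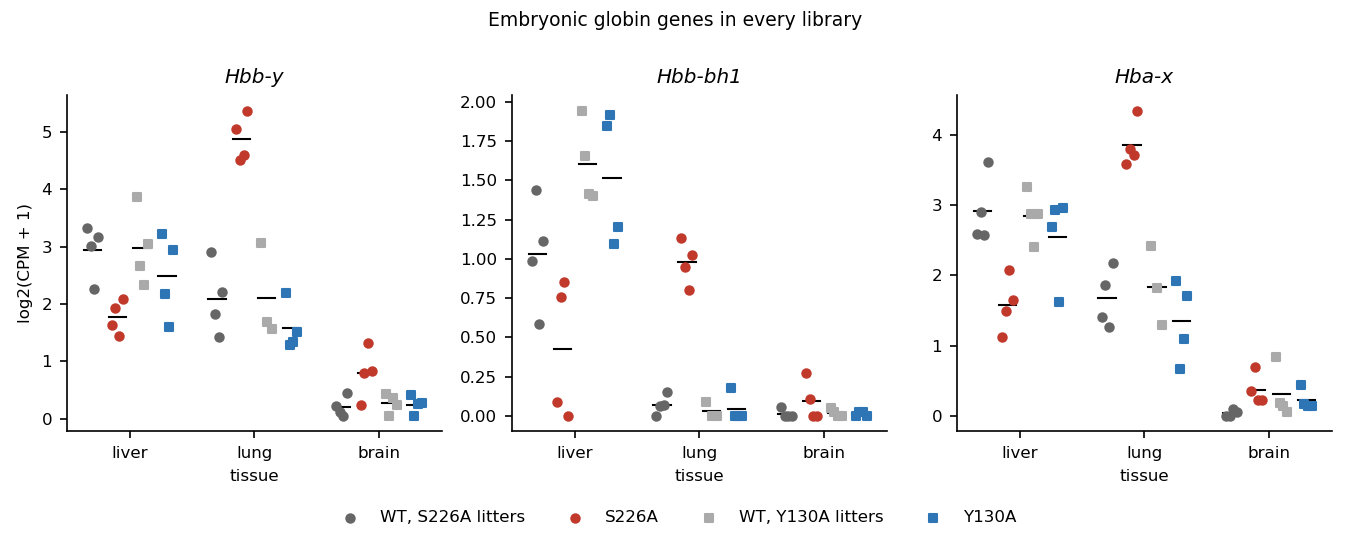
The vertical axis gives log2(CPM + 1) of each embryonic globin gene on its own scale, with 1 point per library and a black line at the mean of each group, for 3 tissues. In the lungs the 4 S226A libraries lie above all wild-type libraries for each of the 3 genes, and in the livers they lie below them for Hbb-y and Hba-x.

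In the lungs of S226A embryos the embryonic genes Hbb-y and Hba-x were called higher than in wild-type littermates, Hbb-y by 8.25-fold in pooled reads (95% interval 7.32 to 9.34, exact, counting error only). This ratio was 11.5 without replicate 1 of the wild-type lungs and 7.05 without replicate 3 of them, the extremes when 1 library was left out. Hbb-y, which encodes the embryonic epsilon-like beta chain, had 785, 467, 498 and 979 reads in the S226A lungs and 139, 57, 34 and 66 reads in the wild-type lungs of the same 4 litters in the same order. In CPM these were 32.4, 21.8, 23.2 and 40.5 against 6.52, 2.56, 1.70 and 3.62. All 4 S226A lungs lay above all 4 wild-type lungs. The log2 fold change was 3.03 (SE 0.51, adjusted p = 0.000308, edgeR), which met the criteria. In whole tissue, a different number of cells that express a gene and a different amount of its RNA per cell cannot be told apart.

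Hba-x, the embryonic zeta-like alpha gene, showed the same in its own cluster on another chromosome. It had 265, 278, 261 and 467 reads in the S226A lungs and 35, 59, 28 and 64 in the wild-type lungs, that is, 10.9, 13.0, 12.2 and 19.3 CPM against 1.64, 2.65, 1.40 and 3.51 CPM. The groups did not overlap, and the log2 fold change of 2.59 (SE 0.52, adjusted p = 0.00288, edgeR) met the criteria. Leaving out replicate 1 or replicate 3 of the wild-type lungs, or replicate 4 of the S226A lungs, ended this call, with fold changes of 2.46, 2.40 and 2.39 and adjusted p = 0.0105, 0.023 and 0.0168. Without the wild-type lung that came from another embryo than its liver (replicate 4), the values were 2.86 for Hba-x (adjusted p = 0.00459) and 3.03 for Hbb-y (adjusted p = 0.00226). With litter as replicate block, the adjusted p was 1.39e-06 for Hbb-y and 7.85e-05 for Hba-x.

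Hbb-bh1, the other embryonic beta-like gene, had 29, 20, 16 and 25 reads in the S226A lungs and 0, 1, 1 and 2 in the wild-type lungs. A count of 0 allows up to 3 reads. The pooled reads, 90 against 4, gave a ratio of 20.1 (95% interval 7.60 to 75.5, exact, counting error only), and 31.3 without replicate 4 of the wild-type lungs. Its log2 fold change of 4.20 (SE 1.00, adjusted p = 0.0184) did not meet the criteria, although the groups did not overlap. In sum, 2 of the 7 globin genes were called higher in S226A lung, against 0.148% of all genes tested (0.302% in either direction), and 3 of 7 had S226A libraries above all wild-type ones, against 2.09% of all genes.

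The adult genes did not move with them in lung. Hbb-bs had 1834, 1133, 3096 and 2162 CPM in the S226A lungs and 2907, 2013, 1479 and 1776 CPM in the wild-type lungs, with overlapping groups and a log2 fold change of 0.01 (SE 0.29), whose sign changed with the processing. Hba-a1 had 704, 432, 1139 and 870 CPM against 1087, 808, 627 and 889 CPM (log2 fold change -0.12, SE 0.29). Hbb-bt and Hba-a2 had log2 fold changes of 0.05 and -0.05. Over the 6 comparisons of a mutant with its littermates, the 24 values of the adult genes ran from -0.22 to 0.15 on the log2 scale, with standard errors of 0.29 to 0.34, and the lowest adjusted p was 0.812. None had an unadjusted p below 0.05.

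**Figure D2:**
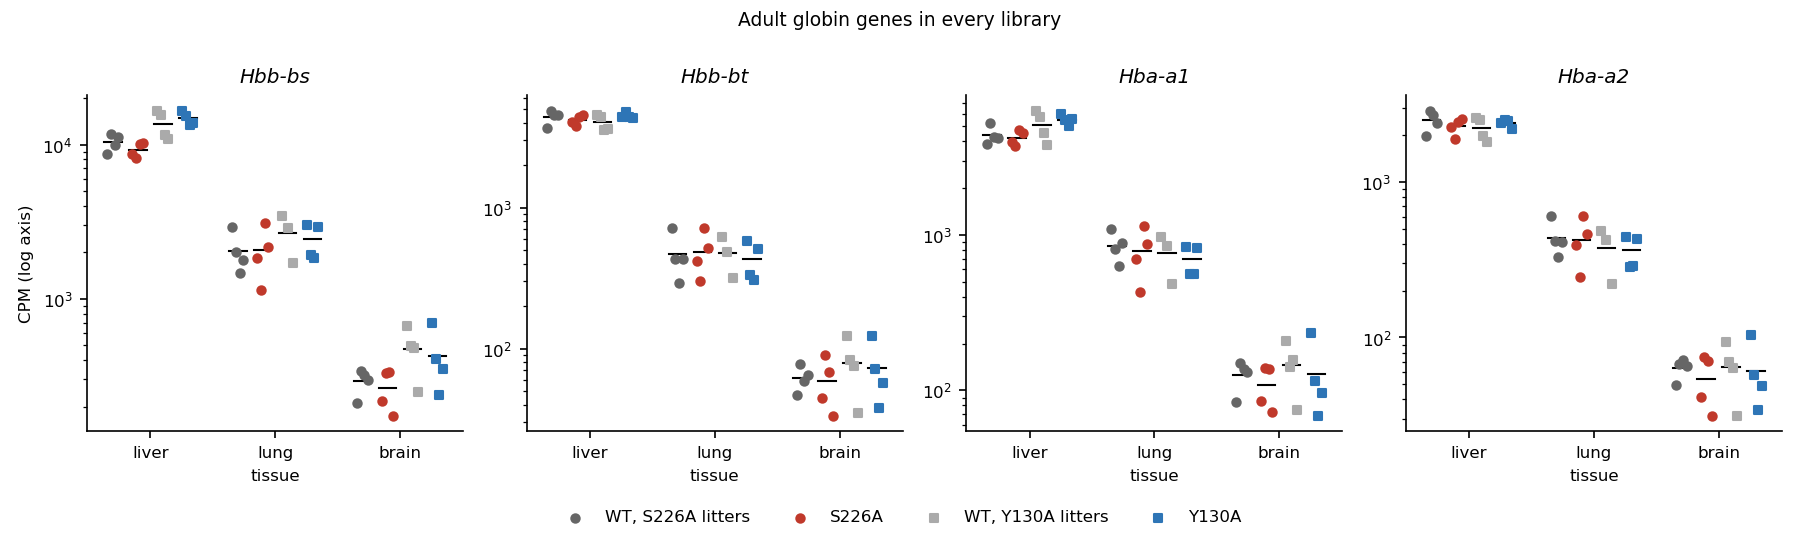
CPM of each adult globin gene on a log axis, with 1 point per library, a black line at the group mean, and the 3 tissues along the horizontal axis. Mutant and wild-type libraries overlap in each tissue for each of the 4 genes.

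In the livers of the same S226A embryos, Hbb-y and Hba-x lay below all wild-type littermates without meeting the criteria, and Hbb-bh1 overlapped. Hbb-y had 32, 61, 28 and 49 reads in the S226A livers and 147, 108, 53 and 130 in the wild-type livers, or 2.11, 2.82, 1.73 and 3.25 CPM against 9.03, 7.10, 3.81 and 7.97 CPM. All S226A livers lay below all wild-type livers. The log2 fold change was -1.49 (SE 0.52, adjusted p = 0.0535, edgeR). Hba-x had 18, 39, 52 and 32 reads against 82, 98, 69 and 183, again without overlap, and a log2 fold change of -1.73 (SE 0.52, adjusted p = 0.0217). Hbb-bh1 had 1, 15, 13 and 0 reads against 16, 26, 7 and 19, groups that overlapped, with more reads in the S226A liver than in the wild-type liver of 1 litter (log2 fold change -1.44, SE 0.80, adjusted p = 0.272).

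By the fit without litter, no globin gene met the criteria in S226A liver, where 2.1% of all genes did. With litter as replicate block, Hbb-y (-1.47, adjusted p = 0.00204) and Hba-x (-1.73, adjusted p = 0.00178) were called lower. They were also called in a fit of only the libraries compared (adjusted p = 0.0093 and 0.00815), and Hba-x alone by DESeq2 (adjusted p = 0.00992). The number with all S226A libraries below all wild-type libraries was 2 of 7, against 5.18% of all genes tested.

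In S226A brain the reads were few. Hba-x had 8, 16, 4 and 4 reads in the S226A brains and 0, 0, 2 and 1 in the wild-type brains of the same litters in the same order, so that the groups did not overlap, as for 1.24% of all genes with S226A higher. Pooled over libraries this was 32 reads against 3, a ratio of 10.8 (95% interval 3.37 to 54.9, exact, counting error only). The wild-type brains of these litters were low in Hba-x, with a mean of 0.0269 CPM against 0.27 CPM in the wild-type brains of the Y130A litters (log2 difference -3.06, adjusted p = 0.0675) and 0.309 CPM in the S226A brains. Per 1000 adult alpha reads, the S226A brains (0.805 to 2.93) overlapped the wild-type brains of the Y130A litters (0.37 to 2.63). Replicate 1 of the latter alone, with 43 of their 59 reads, made this overlap. The other 3 lay at 0.37 to 0.651 per 1000, and their mean was 0.0945 CPM. Without replicate 3 of the wild-type brains of the S226A litters, which held 2 of the 3 reads, the pooled ratio was 23.4. Hbb-y had 5, 19, 36 and 19 reads against 4, 2, 1 and 10, or 79 in all against 17, a ratio of 4.69 (95% interval 2.75 to 8.45), with overlapping groups, and a ratio of 8.41 without replicate 4 of the wild-type brains, and Hbb-bh1 had 8 reads against 1. The log2 fold changes were 3.27 for Hba-x (SE 1.07, adjusted p = 0.676), 2.23 for Hbb-y (SE 0.76, adjusted p = 0.872) and 2.55 for Hbb-bh1 (SE 1.45, adjusted p = 1). Leaving out 1 library at a time, they ran from 2.69 to 4.20, from 1.74 to 3.04 and from 1.17 to 4.37. None met the criteria in edgeR, where 0.124% of all genes did, and 2 of the 7, Hba-x and Hbb-y, had an unadjusted p below 0.05, against 2.27% of all genes. The depth of these libraries limits what can be shown in brain.

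**Figure D3:**
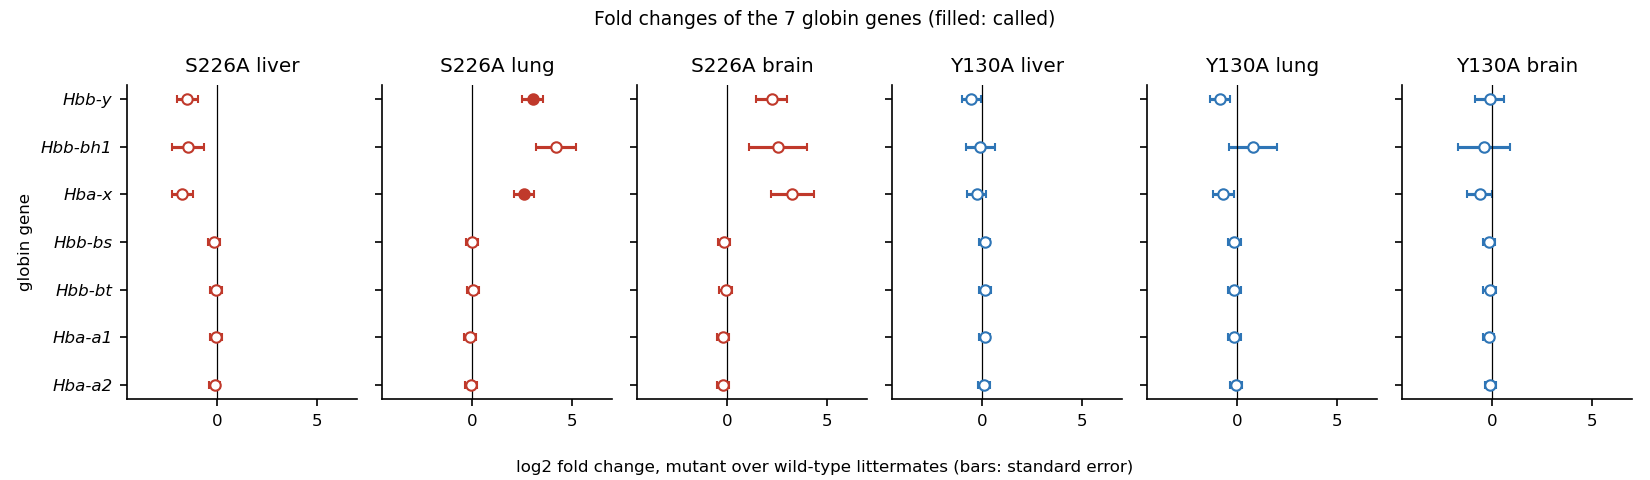
Log2 fold change of each globin gene (horizontal axis, with the standard error as bars) in each mutant tissue against wild-type littermates, filled where the criteria were met. The 2 filled points are Hbb-y and Hba-x in S226A lung, and the 4 adult genes lie within 0.22 of 0 in the 6 panels.

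In the Y130A embryos no globin gene was called against wild-type littermates. In the Y130A lungs Hbb-y ran from 1.45 to 3.57 CPM and in the wild-type lungs of their litters from 1.97 to 7.37 CPM, with overlap (log2 fold change -0.86, SE 0.52, adjusted p = 1). In the Y130A livers it ran from 2.02 to 8.32 CPM, and in wild-type livers from 4.03 to 13.5 CPM (-0.55, SE 0.48, adjusted p = 0.853). Hba-x gave -0.70 in lung, -0.28 in liver and -0.63 in brain. In pooled reads, with exact 95% intervals that cover counting error only, the ratio of Y130A to wild type for Hbb-y was 0.698 (0.631 to 0.772) in liver and 0.587 (0.516 to 0.668) in lung. For Hba-x it was 0.823 (0.741 to 0.913) in liver, 0.652 (0.563 to 0.756) in lung and 0.64 (0.411 to 0.985) in brain, and for Hbb-bh1 0.939 (0.786 to 1.12) in liver. Leaving out 1 wild-type embryo (replicate 1 in lung and brain, replicate 4 in liver) moved these ratios. In lung they became 1.06 for Hbb-y and 0.9 for Hba-x, and in brain 1.17 for Hbb-y and 1.78 for Hba-x. In liver they became 0.957 for Hbb-y, 0.927 for Hba-x and 1.07 for Hbb-bh1. Without replicate 1 of the Y130A brains, the ratio of Hba-x in brain was 0.423. These intervals leave out the spread between embryos, over which the groups overlapped. None of the 7 genes was called in a Y130A tissue by edgeR or by DESeq2, where edgeR called 0.077% of all genes in liver and 0 in lung and brain, and none of the 7 had an unadjusted p below 0.05, where 9.22% (liver), 2.92% (lung) and 2.22% (brain) of all genes had one. Against its own littermate, Hbb-y relative to the adult beta genes was lower in 4 of 4 Y130A livers and in 3 of 3 Y130A lungs, by 0.45 to 1.22 and by 0.05 to 0.87 on the log2 scale. Hba-x relative to the adult alpha genes was lower in 3 of 3 Y130A lungs, by 0.46 to 1.46, and in 3 of 4 Y130A livers. In brain it was higher in 3 of 4 Y130A embryos, with differences from -1.30 to 1.11. Hbb-y and Hbb-bh1, relative to the adult beta genes, were each higher in 2 of 4 Y130A brains and lower in 2. The exact permutation tests of the Hbb-y ratios, which do not pair littermates, gave p = 0.229 in liver and 0.286 in lung.

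The difference between the mutants was tested directly. In lung, the S226A effect on Hbb-y exceeded the Y130A effect by 3.89 on the log2 scale (SE 0.72, adjusted p = 0.00415, edgeR), and 1 of the 7 genes was called, against 0.077% of all genes. Hba-x differed by 3.29 (SE 0.73, adjusted p = 0.0258) and with litter as replicate block by 3.61 (adjusted p = 0.000921), which met the limits. The call for Hbb-y was lost without any 1 of 6 of the 15 lungs, namely replicate 3 of the wild-type and replicate 4 of the mutant lungs of the S226A litters, replicate 1 of the lungs from wild-type embryos in the Y130A litters and replicates 2, 3 and 4 of the Y130A lungs. Its adjusted p was then 0.0129 to 0.0756, and the difference stayed between 3.02 and 4.35 over all 15. In liver and brain no globin gene was called for this difference (1.47% and 0.0474% of all genes), with unadjusted p below 0.05 for Hba-x in liver (18.4% of all genes) and for Hba-x and Hbb-y in brain (2.29%).

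Whether the S226A effect differed between tissues was tested after its values had been seen. The fits did not pair the tissues of an embryo, with or without litter as replicate block. The effect in lung exceeded that in liver by 4.52 for Hbb-y (SE 0.73, adjusted p = 2.91e-05), 4.32 for Hba-x (SE 0.73, adjusted p = 6.68e-05) and 5.64 for Hbb-bh1 (SE 1.29, adjusted p = 0.00384), while no adult gene was called (background 1.59% in edgeR). The call for Hbb-bh1 was lost without replicate 1 of the wild-type lungs of the S226A litters (5.23, adjusted p = 0.0104). From liver to brain, the effect differed by 5.00 for Hba-x (SE 1.16, adjusted p = 0.00645), the 1 gene called, against 1.02% of all genes. That call was lost without any 1 of 8 of the 16 libraries (replicates 1 and 2 of the S226A livers and of the S226A brains, replicate 4 of the wild-type livers, and replicates 1, 2 and 4 of the wild-type brains, with adjusted p = 0.0106 to 0.044). Hbb-y differed by 3.73 (SE 0.92, adjusted p = 0.0113), and with litter as replicate block by 3.68 (adjusted p = 0.00026). For Y130A none of the 7 genes was called between lung and liver (0.00592% of all genes) or brain and liver (0.0178%) in edgeR, and none had an unadjusted p below 0.05.

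**Figure D4:**
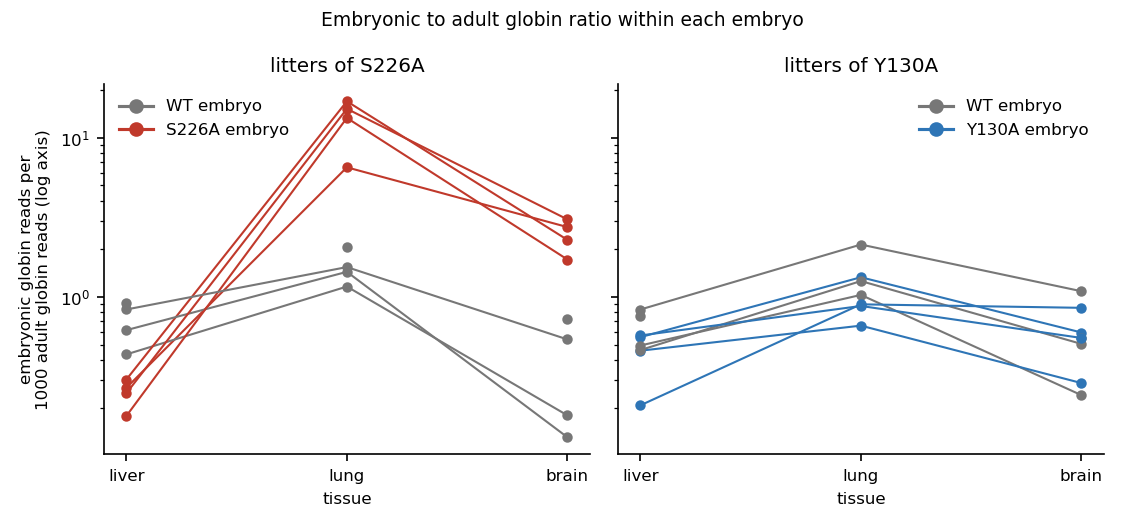
Embryonic globin reads (Hbb-y, Hbb-bh1 and Hba-x) per 1000 adult globin reads on a log axis, with 1 line per embryo through its liver, lung and brain. The S226A lungs lie at 6.50 to 16.9 and the wild-type lungs of their litters at 1.16 to 2.06, while the S226A livers lie below the wild-type livers. Points without a line are tissues of embryos of which not all 3 tissues are present.

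The embryonic to adult ratio uses counts of 1 library and so needs no normalization between libraries. Summed over the 3 embryonic and 4 adult genes, it was 13.3, 16.9, 6.50 and 15.2 embryonic reads per 1000 adult reads in the S226A lungs, against 1.54, 1.43, 1.16 and 2.06 in the wild-type lungs. In liver it was 0.178, 0.301, 0.267 and 0.247 against 0.831, 0.616, 0.434 and 0.914. In brain it was 1.71, 2.28, 2.74 and 3.06 against 0.539, 0.131, 0.179 and 0.728. The groups did not overlap in any of the 3 tissues, with S226A higher in lung and brain and lower in liver. In the Y130A litters the ranges overlapped in each tissue, with 0.658 to 1.33 against 1.03 to 2.13 in lung, 0.208 to 0.570 against 0.462 to 0.830 in liver, and 0.286 to 0.851 against 0.240 to 1.08 in brain.

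The ratio of each embryonic gene to the adult genes of its own chain was compared with two-sided exact permutation tests, 18 in all. In S226A lung the difference in mean log2 ratio was 3.17 for Hbb-y, 3.97 for Hbb-bh1 and 2.78 for Hba-x, in S226A liver it was -1.33 for Hbb-y and -1.64 for Hba-x, and in S226A brain 3.17 for Hba-x. Each of these 6 gave p = 0.0286, the smallest p that 4 libraries against 4 can give in the exact permutation test. Adjusted over the 18 tests they became 0.0858, so that none passed an adjusted p of 0.05 in a design of this size. The other 12 exact permutation tests gave p = 0.0857 to 1. Each S226A lung was above its littermate for each of the 3 genes, and each S226A liver was below its littermate for Hbb-y, by 0.86 to 2.13, and for Hba-x, by 0.65 to 2.47 on the log2 scale.

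Within embryos the 2 tissues stood in a different relation. Relative to the adult beta genes, Hbb-y was 50.6 to 86.5 times as high in the lung as in the liver of the 4 S226A embryos, and 2.45 to 3.63 times as high in the 3 wild-type littermates with both tissues. In the Y130A litters the range was 1.46 to 6.32 times in 4 mutant embryos and 2.45 to 3.66 times in 3 wild-type embryos. The 3 wild-type embryos of either set thus gave like values, and each S226A embryo lay above all 10 other embryos.

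Among themselves the embryonic genes moved together across libraries. After the mean of each tissue and set of litters was subtracted, log2(CPM + 1) of Hbb-y and Hba-x correlated at 0.85 over the 47 libraries, of Hba-x and Hbb-bh1 at 0.778, and of Hbb-y and Hbb-bh1 at 0.698. The adult genes correlated with each other at 0.938 to 0.974, and embryonic with adult genes at 0.00659 to 0.262. Libraries of 1 embryo or litter are not independent, and the genotypes are part of this variation, so these values are a description. In the same measure, the genes outside the family most like Hbb-bt were Alas2, the first enzyme of heme synthesis in red cells (0.937), Tent5c (0.856) and Slc4a1, the anion exchanger of the red cell membrane (0.807). Those most like Hbb-y were Hmox1, which breaks down heme (0.727), Depdc1a (0.698) and Prtg (0.69). For Hba-x they were Lig1 (0.694), Hmox1 (0.674) and Fcna (0.669), and for Hbb-bh1 they were Rad21 (0.71), Ccdc58 (0.693) and Asns (0.688).

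Ratios within the adult genes served as a view of the adult chains. Adult alpha reads per adult beta read were 0.457 to 0.497 in S226A lungs against 0.467 to 0.588 in wild-type lungs, and 0.468 to 0.495 in S226A livers against 0.424 to 0.491 in wild-type livers. In brain the 4 S226A libraries, at 0.482 to 0.515, lay just below the wild-type ones, at 0.520 to 0.549. In the Y130A litters the ratio was 0.347 to 0.430 over both genotypes and the 3 tissues, below the S226A litters in lung and brain and overlapping them in liver. None of these ratios was tested.

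The red cells of the samples were followed through genes other than globins. A list of 12 red cell genes, most of them of the membrane and its skeleton, among them Slc4a1 and Epor, had 0 of 12 called in edgeR in any comparison (3 at an unadjusted p below 0.05 in S226A liver, where 24.7% of all genes were, and 0 in the others), with median log2 fold changes in S226A embryos of -0.31 (liver), -0.36 (lung) and -0.20 (brain), where the medians over all genes were -0.01, 0.00 and 0.00. Their summed level was 7455 to 8290 CPM in S226A livers, below the 8627 to 10480 CPM of the wild-type livers. In the livers embryonic globin was 0.436 to 0.721 CPM per 1000 CPM of this list in S226A embryos and 0.913 to 2.10 in wild-type embryos. In lung and brain the sum does not follow red cells, since most of it came from Epb41, Sptb and Ank1, which other cells also express. Epb41 alone had a mean of 209.9 CPM of a summed 303 CPM in S226A lungs, and in S226A brains Epb41 had 153.2, Sptb 76.8 and Ank1 40.7 CPM of 277 CPM. Alas2, which red cell precursors use, was therefore taken as the reference there. Embryonic globin was 165 to 434 CPM per 1000 CPM of Alas2 in S226A lungs and 25.4 to 46.8 in wild-type lungs, and in brain 49.4 to 92.0 against 3.45 to 19.9. Adult globin relative to Alas2 overlapped between S226A and wild-type libraries in liver, lung and brain. Slc4a1 was at 25.6 to 43.5 CPM in S226A lungs and 28.0 to 89.7 CPM in wild-type lungs, and Alas2 was at 82.1 to 219 CPM in S226A lungs and 124 to 174 CPM in wild-type lungs.

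Of 28 regulators of globin genes, which include the activators Klf1 and Gata1 and the repressors Bcl11a and Zbtb7a, none was called in any comparison in edgeR, while in S226A embryos 7 (liver), 8 (lung) and 1 (brain) had an unadjusted p below 0.05, as did 24.7%, 16.2% and 2.27% of all genes. At an adjusted p below 0.05 alone, 4 passed in S226A liver (11.7% of all genes), of which Lin28a, an RNA-binding protein of early development, was higher (1.15, SE 0.33, adjusted p = 0.0177), and Tal1 (-0.34), Klf3 (-0.32) and Sox6 (-0.29) were lower. In S226A lung 1 passed (1.88% of all genes), Dnmt1, the maintenance DNA methyltransferase (0.28, SE 0.08, adjusted p = 0.0449). These genes were chosen after their values were seen. Of the other regulators with an unadjusted p below 0.05 in S226A lung, Lin28a (2.29, adjusted p = 0.0585) and Atrx (0.17) were positive. Lin28a was low there, with means of 0.376 CPM in S226A and 0.0723 CPM in wild-type lungs and overlapping groups. Zfpm1 (-0.53, adjusted p = 0.0625), Zbtb7a (-0.37), Sox6 (-0.24), Ikzf1 (-0.27) and Ehmt2 (-0.17) were negative. For Zfpm1 the S226A lungs lay below all wild-type lungs, as for 1.72% of all genes. Bcl11a, Klf1 and Myb had log2 fold changes of 0.06, -0.38 and 0.05 there. Of 15 genes of heme synthesis and globin assembly none was called in edgeR (8 in S226A liver and 2 in S226A lung at an unadjusted p below 0.05, against 24.7% and 16.2% of all genes), and at an adjusted p below 0.05 alone 2 of 15, Cpox (-0.40) and Abcb10 (-0.27), were lower in S226A liver, near the 11.7% of all genes in either direction. The minor alpha-like genes Hbq1a and Hbq1b were not called, with log2 fold changes of 2.21 (SE 0.89, adjusted p = 0.194) and 0.58 in S226A lung. In S226A liver they had -0.84, with S226A livers below all wild-type livers as for 5.18% of all genes, and -0.16. In S226A brain they had 0.42 and -1.40, the latter with S226A brains below all wild-type brains (adjusted p = 1), as for 1.24% of all genes.

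Markers of other blood cells differed in the same S226A tissues. Of 12 neutrophil genes, 12 were called higher in S226A liver, against 1.26% of all genes, among them Ctsg (1.70), Cebpe (1.62), Mpo (1.52) and Lcn2 (1.49). The summed level was 9656 to 10370 CPM against 3313 to 3955 CPM in wild-type livers. In S226A lung 4 of 12 were called higher, against 0.148% of all genes, namely Cebpe (3.44), S100a9 (1.83), Mmp8 (1.73) and S100a8 (1.65), and the sum was 169 to 228 CPM against 68.0 to 115 CPM. In brain none of the 12 was called in edgeR, with sums of 7.63 to 16.3 CPM against 3.91 to 6.12 CPM. Of the 12, 5 had an unadjusted p below 0.05 (2.27% of all genes) and 2 an adjusted p below 0.05 (0.243%). Of 12 macrophage genes, 10 were called lower in S226A liver, against 0.847% of all genes, with Vsig4, which had no read in any S226A liver, Clec4f (-8.42), Timd4 (-4.66) and C1qa (-3.26) at the extreme and a sum of 301 to 429 CPM against 1089 to 1271 CPM. In lung the list moved in both directions. Csf1r was called lower (-1.13, 1 of 12, against 0.154% of all genes). At an adjusted p below 0.05 alone, which 1.88% of all genes passed, Adgre1 was also lower (-0.58). Cd5l (1.97, adjusted p = 0.0412) and Marco (1.01, adjusted p = 0.0165) were higher at that limit. The sums were 143 to 181 CPM against 176 to 232 CPM. Adgre1, Cd5l and Marco were chosen after their values were seen. In brain Csf1r was called lower (-1.52, against 0.0947% of all genes) and Marco higher (against 0.0296%). At an adjusted p below 0.05 alone, which 0.243% of all genes passed, C1qb (-0.97), C1qa (-0.73) and C1qc (-0.63) were also lower. Hepatocyte genes summed to 34.6 to 279 CPM in S226A lungs and 23.6 to 498 CPM in wild-type lungs. The part of these cells in the globin values was not tested.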

How the data were processed

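RNA-seq counts of whole tissues at E18.5 were given as 1 table of counts. The counts are whole reads per gene that the authors deposited without normalization, after adapter trimming (Trim Galore 0.6.5), alignment to GRCm38 and counting per gene with STAR 2.6.0b, per the submitters' processing notes and the study's methods. Read length, strand and any globin depletion are not given in the sources used here. Of 20456 gene identifiers, 20424 were matched to a symbol, and all 7 globin genes were found. The members and lists were chosen with earlier results of these data known.

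All 47 libraries were fitted with edgeR 4.0.16 in R 4.3.3 (TMM, filterByExpr with a minimum count of 10 and minimum total of 15, 12 groups, quasi-likelihood test), which left 16892 genes, and p-values were adjusted over all of them (Benjamini-Hochberg). The standard error is the size of the log2 fold change over the square root of F. CPM are TMM-scaled. Differences between effects had no criterion on the standard error. The scripts were tested on simulated data. Ratios used reads with 0.5 added and were tested in scipy. Intervals and floors (3 reads) cover counting error only. The text names the 7 globin genes, called genes of the lists (at most the 4 largest each) and the 3 genes most correlated with Hbb-y, Hbb-bh1, Hba-x and Hbb-bt. Other names were chosen after their values were seen.

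Litter numbers in the titles pair mutants with wild-type littermates: 18 of 23 littermate pairs had residuals correlated above 0.1, against 5 of 69 other pairs. Pairs of replicates differed by more than sampling noise (lowest chi-square per degree of freedom 4.17). Embryos are the replicates. Alternatives were RLE size factors, DESeq2 1.42.0, no filter, a fit of the libraries compared alone, a block for litter, an adjusted p below 0.05 alone, no pseudocount, 1 adult gene, 1 chain, Alas2 as reference and leaving out each library. The comparison of effects between tissues was added after the data were seen. Raw reads were not used here.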

Additional observations from a re-analysis of the deposited data

Results flagged for a closer look

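Differences between effects were called, among the 7 genes, for embryonic genes only. The S226A effect exceeded the Y130A effect in lung by 3.89 on the log2 scale for Hbb-y, in 4 of 4 S226A lungs above all wild-type lungs of their litters, with the losses of the call given above. The S226A effect in lung exceeded that in liver by 5.64 for Hbb-bh1, 4.52 for Hbb-y and 4.32 for Hba-x, and in brain exceeded that in liver by 5.00 for Hba-x.

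Single libraries lay far from the other libraries of their group in 7 of 110 groups of values, and chance gives about 1 in 20. Relative to the adult beta genes, Hbb-y in replicate 3 of the S226A lungs was at -7.36 on the log2 scale and the others at -6.12 to -6.04, still above the wild-type lungs. Hbb-y was at -13.7 in replicate 2 of the wild-type brains of the Y130A litters (others -11.1 to -10.6), and Hbb-bh1 at -12.0 in replicate 1 of the wild-type brains of the S226A litters (others -14.4 to -14.3), where its log2(CPM + 1) was 0.0594 from 1 read and the others had 0. Hbb-bh1 was at 0.181 in log2(CPM + 1) in replicate 1 of the Y130A lungs, with 0 reads in the others. Where the others have 0, any read stands apart in this way, and 1 read is within what a count of 0 allows, so nothing is read from these values of Hbb-bh1 in wild-type brain. Hba-x was at 0.843 in replicate 1 of the wild-type brains of the Y130A litters (others 0.0554 to 0.186) and at 0.437 in replicate 1 of the Y130A brains (others 0.14 to 0.178), 2 embryos of 1 litter.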

How the results depend on the processing

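In S226A liver the number of globin genes called was 0, and it became 1 with an adjusted p below 0.05 alone, 2 with litter as replicate block, 2 with only the libraries compared and 1 with DESeq2. With litter as replicate block the number rose from 1 to 2 for the S226A against the Y130A effect in lung (Hba-x added) and from 1 to 2 for the S226A effect in brain against liver (Hbb-y added), and the other counts of called globin genes were within 1.5 times. Adult globin relative to red cell genes differed by 0.192 on the log2 scale between S226A and wild-type liver, and by -0.0391 with Alas2 alone as reference, so that its direction turned. Hbb-bs in S226A lung turned negative with RLE size factors (-0.0135), no filter (-0.00234), litter as replicate block (-0.0419), only the libraries compared (-0.00498) and DESeq2 (-0.0135). The causes were not tested. Without a pseudocount 12 of 18 ratios could be computed, with the alpha chain only 5 of 6, and with only the libraries compared 42 of 48 values, since genes fell below the filter.

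Leaving out 1 library at a time, the count of called genes ran from 1 to 2 in S226A lung, from 0 to 1 for the difference of the S226A and Y130A effects in lung, and from 0 to 2 for the S226A effect in brain against liver. In S226A lung Hba-x ran from 2.39 to 2.86, Hbb-bt from -0.192 to 0.332, Hbb-bs from -0.257 to 0.228, Hba-a1 from -0.35 to 0.0849 and Hba-a2 from -0.265 to 0.143. Hba-a1 in S226A liver ran from -0.12 to 0.0376, and in S226A brain Hbb-bt from -0.355 to 0.124 and Hbb-bs from -0.281 to 0.0104. In Y130A liver Hbb-bh1 ran from -0.304 to 0.103. In Y130A lung the ranges were -0.355 to 0.105 for Hbb-bt, -0.378 to 0.0883 for Hbb-bs, -2.65 to 3.44 for Hbb-bh1, -1.26 to 0.0134 for Hbb-y, -0.391 to 0.0644 for Hba-a1 and -0.322 to 0.17 for Hba-a2. In Y130A brain they were -0.51 to 0.171 for Hbb-bt, -0.503 to 0.0564 for Hbb-bs, -0.774 to 0.434 for Hbb-bh1, -0.523 to 0.221 for Hbb-y, -1.22 to 0.822 for Hba-x, -0.646 to 0.0421 for Hba-a1 and -0.463 to 0.153 for Hba-a2. The differences between effects ran from 3.02 to 4.35 for Hbb-y (S226A against Y130A, lung), 5.23 to 6.23 for Hbb-bh1 (lung against liver), and 3.23 to 4.54 for Hbb-y and 4.42 to 5.93 for Hba-x (brain against liver). The log2 ratio to adult genes differed by -0.604 to 0.732 for Hbb-y, -0.42 to 0.587 for Hbb-bh1 and -0.0766 to 0.765 for Hba-x in Y130A brain, and by -0.527 to 0.999 for Hbb-bh1 in Y130A lung. With 3 libraries in a group, the exact permutation test cannot go below p = 0.0571. Reads of the embryonic genes in brain, at most 43 per library, limit what can be told there.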
